A study of Mus musculus with 4 samples.

Results

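The genes of CTCF and of the cohesin complex were read across 4 mouse hearts. The 10 genes are *Ctcf*, *Rad21*, *Smc1a*, *Smc3*, *Stag1*, *Stag2*, *Nipbl*, *Wapl*, *Pds5a* and *Pds5b*. They were chosen by symbol, not by their values, and each symbol had a single row among the 55401 rows of the expression table. RNA was sequenced from heart tissue of 8-week-old animals, 2 of them wild-type and 2 heterozygous for CTCF-R567W, with the mouse as the replicate and 1 library from each. The labels do not say which parts of the heart were taken. Heterozygous animals carry the edited *Ctcf* allele, made by CRISPR/Cas9 in every cell, beside an unedited one. The wild-type animals carry neither the edit nor another treatment, and per the study's methods the line is kept on C57BL/6N. The comparison asks whether transcripts of the edited gene, and of the complex that works with its protein, differ between the genotypes in adult heart.

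CTCF is a zinc finger protein that binds DNA at boundaries between chromatin domains. Cohesin is a ring built from SMC1A, SMC3, the kleisin RAD21 and a STAG subunit. It is loaded with the help of NIPBL, extrudes loops of chromatin until it meets CTCF, and is taken off DNA by WAPL together with a PDS5 protein. In dividing cells the same ring holds sister chromatids together, whereas in the adult heart, where most cardiomyocytes no longer divide, its work is largely in loops and gene expression.

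The substitution of the heterozygous mice lies in the last of the zinc fingers. By the GENCODE annotation of mm10, *Ctcf* spans chr8:105636568-105682922 on the plus strand, and its protein-coding transcript has 12 exons, 3782 bases and a coding length of 2208 bases. Codon 567 lies in exon 9 at chr8:105676176-105676178. The stretch around it is shown because it holds the edited residue. It is 93 bases of spliced reference coding sequence from exons 9 and 10 (plus strand, between bases 105676131 and 105677259), with the arginine codon that R567W replaces in capitals.
Ctcf codon 567: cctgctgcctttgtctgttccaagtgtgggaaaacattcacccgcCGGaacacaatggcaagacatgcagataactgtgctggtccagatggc
The expression table gives 1 value per gene, so both alleles of *Ctcf* are summed in it and the share of transcripts with the edited codon cannot be read from it.

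The promoters were read for features that the choice of genes did not use. Promoters of 300 bases, 250 before and 50 after the start, matched in the RefSeq sequences of GRCm38.p6 for 7 of the 10 genes (*Ctcf*, *Smc1a*, *Smc3*, *Stag1*, *Wapl*, *Pds5a* and *Pds5b*). Their GC content was 58.3% to 80.3%, against a median of 61.0% over 10090 promoters of the genes tested for expression. The ratio of observed to expected CpG was 0.903 to 1.16, against a median of 0.761 over the same promoters, and was above it in all 7. The letters GCCATTTT, or AAAATGGC on the other strand, which resemble the site of the zinc finger factor YY1, stood in 4 of the 7 promoters. They stood in 1.54% of all 32851 promoters and in 2.07% of those of the genes tested for expression. This motif was chosen after the sequences had been read, so the share is a description. The 4 windows are shown with the motif in capitals. They are given on the plus strand of GRCm38.p6, the strand of all 4 genes, at chr8:105636518-105636567 for *Ctcf*, chr19:53600366-53600415 for *Smc3*, chr9:100643216-100643265 for *Stag1* and chr5:150673760-150673809 for *Pds5b*.
Ctcf promoter: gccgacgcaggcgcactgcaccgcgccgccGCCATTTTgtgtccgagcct
Smc3 promoter: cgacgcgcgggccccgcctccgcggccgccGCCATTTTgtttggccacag
Stag1 promoter: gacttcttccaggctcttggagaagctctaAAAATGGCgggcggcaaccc
Pds5b promoter: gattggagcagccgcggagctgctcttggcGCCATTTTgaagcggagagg
Counted from the start that RefSeq gives for each of these promoters, the motif began at base 1 in *Smc3*, 11 in *Ctcf*, -37 in *Pds5b* and -202 in *Stag1*. These starts differ from those of the GENCODE gene models, by which the motif begins before the gene in *Ctcf* and *Smc3* and inside it in *Pds5b* and *Stag1*. The *Pds5b* model begins at chr5:150673739, close to its window. That of *Stag1* begins at chr9:100597798, far before its window, which thus marks a start inside the gene. The letters CCCTC (or GAGGG), the core of the site that gave CTCF its name, stood in 6 of the 7 promoters, against 75.4% of those of tested genes.

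The values are TPM, relative transcript abundances after division by transcript length. Levels can thus be compared between genes within a heart, while a comparison between hearts depends on the scaling. Each library has the same total, of which the genes of the mitochondrial genome took 64.7% and 61.1% in wild-type hearts against 68.6% and 62.6% in heterozygous hearts (replicate 1 before replicate 2, here and below). Values were therefore divided by median-of-ratios factors, of 1.09 and 1.26 for wild-type libraries and of 0.818 and 0.903 for heterozygous ones, and are called scaled TPM. TPM carry no read depth, so the counting error of a value is unknown. Fold changes are heterozygous minus wild-type on the scale of log2(scaled TPM + 1), which understates changes at low levels. They are from limma over 10036 genes with a mean of at least 1 TPM, all 10 genes included, and p was adjusted by Benjamini-Hochberg over that whole set. A gene was called at an adjusted p under 0.05 with a fold change over 1.5.

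In wild-type hearts *Smc1a* had the highest level of the 10, at 12.5 ± 0.611 scaled TPM (SD, n = 2), and *Nipbl* the lowest, at 2.01 ± 0.310 scaled TPM. *Smc1a* stood above 79.6% of the tested genes and *Nipbl* above 23.4%. From high to low the order was *Smc1a*, *Pds5a*, *Ctcf*, *Pds5b*, *Rad21*, *Stag1*, *Smc3*, *Stag2*, *Wapl* and *Nipbl*. The neighbours *Stag1* and *Smc3*, and *Smc3* and *Stag2*, overlapped between the wild-type hearts, and every other neighbouring pair had separate values there. In all 4 hearts the first 6 genes kept this order, and *Wapl* was above *Nipbl*. *Smc3* was above *Stag2* in only 1 heart, and *Stag2* above *Wapl* in 2.

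**Figure D1:**
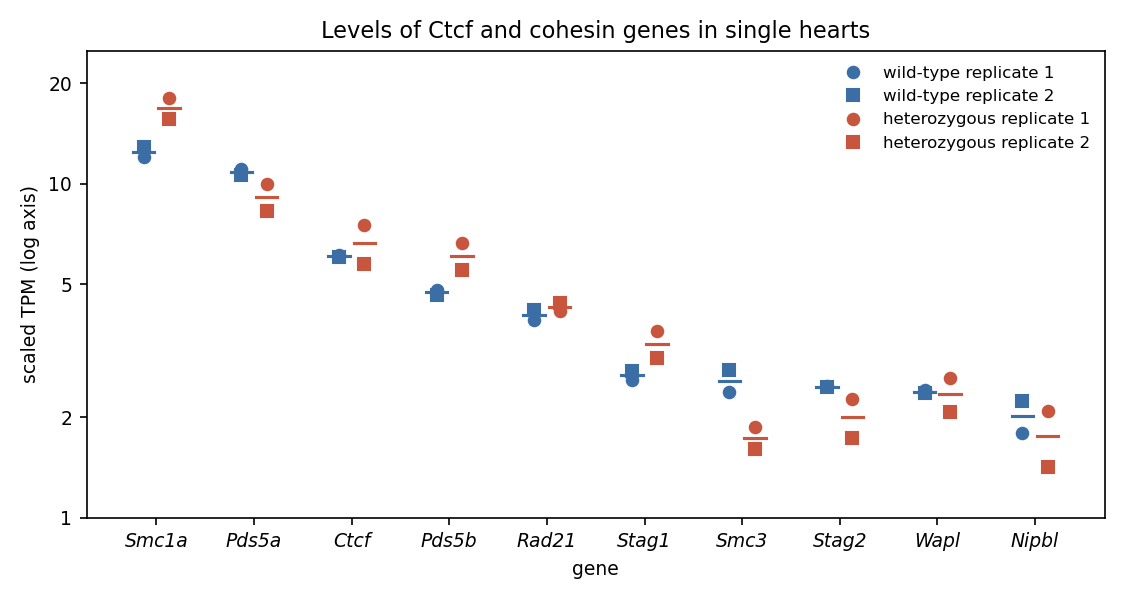
Scaled TPM on a log axis for the 10 genes in each heart, ordered by the wild-type mean, with wild-type hearts in blue, heterozygous hearts in red and a bar at each group mean. *Smc1a*, *Stag1* and *Pds5b* lie higher in both heterozygous hearts than in both wild-type hearts, and *Smc3*, *Stag2* and *Pds5a* lie lower, whereas in TPM as deposited the first 3 overlap between the genotypes. Where only 1 wild-type point is visible, the other lies under it.

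None of the 10 genes passed the threshold for a difference between the genotypes, and 0.0199% of all tested genes did (2 of 10036). *Smc1a* was higher and *Smc3* lower at an unadjusted p under 0.05, 1 gene in each direction, against 6.49% of tested genes higher and 5.71% lower. In scaled TPM both heterozygous hearts lay above both wild-type hearts for 3 genes (*Smc1a*, *Stag1*, *Pds5b*) and below them for 3 (*Smc3*, *Stag2*, *Pds5a*), whereas 23.7% of tested genes were separate upward and 23.3% downward. The median fold change of the 10 genes was 0.02, and that of all tested genes was -0.005. A two-sided exact permutation test of a single value, with 2 mice against 2, cannot give a p below 0.333. The labels do not say whether the mice were littermates.

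*Ctcf* itself (ENSMUSG00000005698.15) did not differ detectably between the genotypes. Its level was 6.12 and 6.02 scaled TPM in wild-type hearts against 7.51 and 5.76 in heterozygous hearts. The heterozygous values lay on either side of the wild-type values, and heterozygous replicate 1 was the highest of the 4. The log2 fold change was 0.10 (SE 0.163, 95% interval -0.29 to 0.49, limma adjusted p = 0.814). A level halved from that of wild-type hearts would stand at -0.81 on this scale, which lies outside the interval. What each allele contributed was not tested. The group means were 6.07 ± 0.0689 and 6.63 ± 1.24 scaled TPM (SD, n = 2), so the spread between the heterozygous hearts exceeded the difference between the genotypes. In TPM as deposited the values were 6.66 and 7.59 against 6.14 and 5.20, both heterozygous hearts lower, with a log2 fold change of -0.29 (interval -0.71 to 0.14, limma adjusted p = 0.278), and there a halved level would stand at -0.83. In heart tissue of mixed cells, fewer cells of a type and less RNA per cell cannot be told apart, here or for the genes that follow.

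Among the ring subunits, the partner SMC genes had fold changes of opposite sign in scaled TPM, while in TPM as deposited both were below 0. Positions of the genes are those of mm10. *Smc1a* (chrX:152016428-152062694, plus strand), which encodes the SMC1A arm of the ring, was at 12.0 and 12.9 scaled TPM in wild-type hearts against 18.0 and 15.7 in heterozygous hearts. Both heterozygous hearts were higher. Its log2 fold change was 0.40 (SE 0.157, interval 0.02 to 0.78), with an unadjusted p of 0.0399 and a limma adjusted p of 0.391. *Smc3* (chr19:53600398-53645833, plus strand), which encodes the other arm and is the subunit acetylated to stabilise cohesin on DNA, was at 2.38 and 2.76 scaled TPM in wild-type hearts against 1.87 and 1.61 in heterozygous hearts. Both heterozygous hearts were lower. Its log2 fold change was -0.38 (SE 0.141, interval -0.72 to -0.05), with an unadjusted p of 0.0315 and a limma adjusted p of 0.374. *Rad21* (chr15:51962240-51991747, minus strand), the kleisin that closes the ring and is cut by separase, was at 3.90 and 4.20 scaled TPM against 4.17 and 4.41 in heterozygous hearts. The groups overlapped, and the log2 fold change was 0.07 (interval -0.25 to 0.39, limma adjusted p = 0.854).

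The STAG genes encode alternative subunits that bind RAD21, and a ring holds either STAG1 or STAG2. *Stag1* (chr9:100597798-100959375, plus strand) was at 2.58 and 2.75 scaled TPM in wild-type hearts against 3.63 and 3.00 in heterozygous hearts. *Stag2* (chrX:42149317-42277185, plus strand), whose protein is the more abundant in many tissues, was at 2.48 and 2.46 scaled TPM in wild-type hearts against 2.26 and 1.74 in heterozygous hearts. In scaled TPM both heterozygous hearts were thus higher for *Stag1* and lower for *Stag2*. The log2 fold changes were 0.23 for *Stag1* (interval -0.11 to 0.57, limma adjusted p = 0.518) and -0.22 for *Stag2* (interval -0.57 to 0.13, limma adjusted p = 0.554), and neither interval excluded 0.

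*Smc1a* and *Stag2* are X-linked. The X-inactivation transcript *Xist* was at most 0.03 TPM in every heart, and the Y-linked *Ddx3y* was at 12.5 to 19.8 scaled TPM, as in males. Both genes were therefore read from a single X chromosome in all 4 hearts.

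The genes that load and release cohesin overlapped between the genotypes in scaled TPM, while in TPM as deposited both were lower in both heterozygous hearts. *Nipbl* (chr15:8290617-8444463, minus strand), the loader gene, was at 1.79 and 2.23 scaled TPM in wild-type hearts against 2.09 and 1.42 in heterozygous hearts. Its log2 fold change was -0.14 (interval -0.55 to 0.28, limma adjusted p = 0.756). *Wapl* (chr14:34673928-34747983, plus strand), the release factor gene, was at 2.41 and 2.36 scaled TPM against 2.62 and 2.07 in heterozygous hearts. Its log2 fold change was -0.02 (interval -0.37 to 0.32, limma adjusted p = 0.960). For both genes heterozygous replicate 2 was the lowest of the 4 hearts.

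The PDS5 paralogs, which bind the ring and take part both in its release and in its protection, had fold changes of opposite sign in scaled TPM, while in TPM as deposited both were below 0. *Pds5a* (chr5:65605721-65698273, minus strand) was at 11.1 and 10.6 scaled TPM in wild-type hearts against 9.96 and 8.31 in heterozygous hearts, the latter both lower. Its log2 fold change was -0.23 (interval -0.60 to 0.14, limma adjusted p = 0.552). *Pds5b* (chr5:150673739-150810690, plus strand) was at 4.81 and 4.65 scaled TPM in wild-type hearts against 6.67 and 5.51 in heterozygous hearts, the latter both higher. Its log2 fold change was 0.30 (interval -0.05 to 0.66, unadjusted p = 0.0824, limma adjusted p = 0.445).

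The direction of these fold changes depended on the scaling. In TPM as deposited all 10 genes had a fold change below 0, from -0.69 for *Smc3* to -0.02 for *Smc1a*, and 7 of them were lower in both heterozygous hearts than in both wild-type hearts. Of all tested genes, 67.8% were separate in that direction on this scale. The median was -0.31 for the 10 genes and -0.35 for all tested genes, so relative to that shift the genes again lay near the middle. *Smc3*, *Stag2* and *Pds5a* reached an unadjusted p under 0.05 in TPM as deposited, with limma adjusted p of 0.0891, 0.0958 and 0.0912. On that scale 3390 of the 10036 tested genes also had an unadjusted limma p under 0.05, so 3 of 10 is near the share over all genes. No gene was called on either scale.

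**Figure D2:**
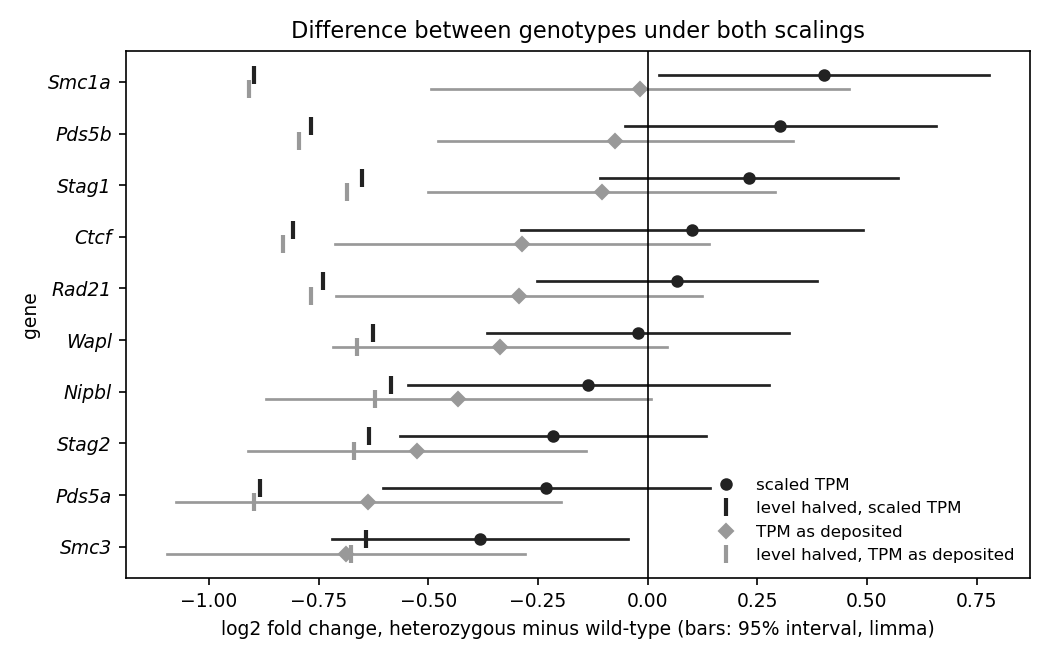
Log2 fold change of each gene, heterozygous minus wild-type, with its 95% interval from limma, for scaled TPM in black and for TPM as deposited in grey, and with an upright tick where the level would be halved. In scaled TPM the intervals of *Smc1a* and *Smc3* exclude 0 and only that of *Smc3* reaches its tick, and in TPM as deposited every gene lies further to the left, with 5 of the 10 intervals reaching their tick.

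Ratios between genes within a library do not depend on any scaling. There were 7 ratios of partners or alternatives, of which 4 were separate between the genotypes, each by over 1.5-fold. Those of *Smc1a* to *Smc3*, *Stag2* to *Stag1* and *Pds5b* to *Pds5a* pair genes already separate in opposite directions in scaled TPM. Such ratios had to be separate, so they repeat those values and are not further results. Over all pairs of tested genes 46.6% of ratios were separate between the groups in either direction, and 20.3% were separate with means over 1.5-fold apart. Each separate ratio had an exact permutation p of 0.333, the smallest that the design allows, and 0.583 after Benjamini-Hochberg adjustment over the 7 ratios, so none passed a threshold.

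The ratio of *Smc1a* to *Smc3* was 5.06 and 4.67 in wild-type hearts against 9.61 and 9.75 in heterozygous hearts. The proteins pair one to one, but *Smc1a* transcripts exceeded those of *Smc3* in every heart. The log2 ratio was higher by 0.99 ± 0.0581 (SE, n = 2 and 2) in heterozygous hearts, 1.99-fold. The ratio of *Rad21* to *Smc3* was 1.64 and 1.52 in wild-type hearts against 2.23 and 2.75 in heterozygous hearts, a log2 difference of 0.65 ± 0.159. These ratios share *Smc3*, so they are not separate observations.

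The ratio of *Stag2* to *Stag1* was 0.961 and 0.893 in wild-type hearts against 0.623 and 0.579 in heterozygous hearts. *Stag2* made up 49.0% and 47.2% of the summed TPM of the pair in wild-type hearts against 38.4% and 36.7% in heterozygous hearts. The log2 difference was -0.63 ± 0.0741 (SE). The ratio of *Pds5b* to *Pds5a* was 0.434 and 0.437 in wild-type hearts against 0.670 and 0.663 in heterozygous hearts. *Pds5b* made up 30.2% and 30.4% of its pair in wild-type hearts against 40.1% and 39.9% in heterozygous hearts. The log2 difference was 0.61 ± 0.00921 (SE).

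The remaining ratios overlapped. The ratio of *Nipbl* to its loading partner *Mau2* was 0.210 and 0.300 in wild-type hearts against 0.220 and 0.188 in heterozygous hearts. The ratio of loader to release factor, *Nipbl* to *Wapl*, was 0.744 and 0.946 against 0.799 and 0.684, and that of *Ctcf* to *Rad21* was 1.57 and 1.44 against 1.80 and 1.31. Their log2 differences were -0.30 ± 0.279, -0.18 ± 0.206 and 0.03 ± 0.240 (SE).

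**Figure D3:**
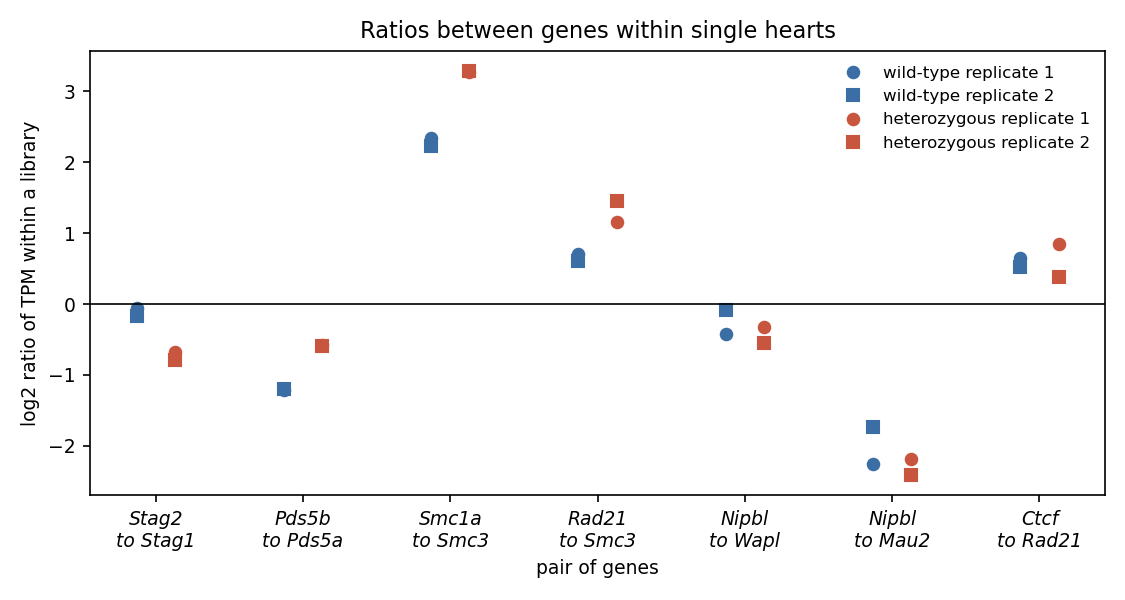
Log2 ratio of TPM of the named genes within each library, wild-type hearts in blue and heterozygous hearts in red. The ratios of *Stag2* to *Stag1*, *Pds5b* to *Pds5a*, *Smc1a* to *Smc3* and *Rad21* to *Smc3* are separate between the genotypes and the other 3 overlap; points of replicates hide each other where the values nearly coincide.

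How RSEM divided reads among transcript models can bear on such ratios. The annotation has 6 models for *Smc1a*, of 499 to 4691 bases, 3 for *Smc3*, of 471 to 4851 bases, 17 for *Stag1*, 14 for *Pds5a* and 1 for *Nipbl*. Values of single models were not used here, so the part of model choice in the ratios was not tested. A pseudogene, *Gm29763*, is 94.5% identical to *Smc3* over 616 bases and was listed at 0 in all 4 hearts. Genes whose exons overlap those of the 10 genes lie on the opposite strand and were at 0.30 TPM or less.

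Genes whose levels over the 4 hearts ran most like those of *Ctcf* were found by the root mean square distance between log2 deviations from each gene's own mean, over 4610 genes with a mean of at least 5 TPM. They were *Prpf39*, a splicing factor gene, at 0.0103, *Tsnax*, which encodes the translin partner translin-associated factor X, at 0.0167, *Fnip1*, which encodes a folliculin partner, at 0.0197, *Slc25a37*, which encodes the mitochondrial iron importer mitoferrin-1, at 0.0204, and *Unc45b*, a myosin chaperone gene, at 0.0206. *Prpf39* was at 17.5 and 17.4 scaled TPM in wild-type hearts against 21.5 and 16.9 in heterozygous hearts, again highest in heterozygous replicate 1. Among the other cohesin genes *Wapl* lay nearest to *Ctcf*, at 0.0698, and *Smc3* farthest, at 0.258. With 4 hearts these distances describe likeness in these libraries only.

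Of 14 other genes for cohesin loading, acetylation, protection and cleavage, 9 were tested and none was called. In scaled TPM, used for this and the other related lists, the fold change was above 0 for 4 and below 0 for 5, with a median of -0.01. *Pttg1*, which encodes securin, the inhibitor of separase, was at 30.7 and 43.7 scaled TPM in wild-type hearts against 18.6 and 26.1 in heterozygous hearts. It had the smallest p and the lowest fold change of the list, -0.71 (interval -1.29 to -0.13, unadjusted p = 0.0239, limma adjusted p = 0.360). *Espl1*, the separase gene, had the highest fold change, 1.21 (limma adjusted p = 0.506), from a single library: it was at 0.276 and 0.151 scaled TPM in wild-type hearts against 0.159 and 5.77 in heterozygous hearts. It reached the mean of 1 TPM needed for testing only through that library, so its rank supports nothing. *Ppp2r1a*, the scaffold subunit of the phosphatase that protects centromeric cohesin, had the highest mean TPM over the 4 hearts, at 28.5 and 27.9 against 23.5 and 50.7 scaled TPM, although *Pttg1* was higher in both wild-type hearts.

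The germline paralogs *Ctcfl*, *Rad21l*, *Rec8*, *Smc1b* and *Stag3* stayed below the level tested. *Stag3*, the highest of the 5, was at 0.19 and 0.79 TPM in wild-type hearts against 0.87 and 0.71 TPM in heterozygous hearts, and *Rad21l* was listed at 0 in all of them.

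The condensin and SMC5-SMC6 complexes are built around related SMC proteins. Of 15 genes in this list 10 were tested and none was called, with 5 fold changes on each side of 0 and a median of 0.004. *Smc6* was at 2.61 and 2.83 scaled TPM in wild-type hearts against 4.93 and 4.72 in heterozygous hearts, both higher. It had the smallest p and the highest fold change of the list, 0.65 (SE 0.132, interval 0.33 to 0.96, unadjusted p = 0.00204, limma adjusted p = 0.286). The condensin I gene *Ncapd2*, named after its values were seen, was at 7.79 and 7.84 scaled TPM against 12.3 and 11.1, with a fold change of 0.53 (limma adjusted p = 0.335). *Nsmce1*, of highest mean TPM over the 4 hearts but below *Ncapd2* in both heterozygous hearts, and *Nsmce4a*, of lowest fold change, belong to the SMC5-SMC6 complex. Their fold changes were -0.21 and -0.22 (limma adjusted p = 0.575 and 0.541), lower in both heterozygous hearts.

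All 15 genes of CTCF partners and other loop factors were tested and none was called. The fold change was above 0 for 7 and below 0 for 8, with a median of -0.02. *Adnp*, which encodes a zinc finger protein that competes with CTCF at some sites, was at 0.873 and 0.333 scaled TPM in wild-type hearts against 2.80 and 1.13 in heterozygous hearts. Of the list it had the smallest p and the highest fold change, 0.85 (interval 0.14 to 1.56, unadjusted p = 0.0261, limma adjusted p = 0.368). It was below 1 TPM in both wild-type hearts and reached the mean of 1 TPM needed for testing only through the heterozygous hearts, so its rank supports nothing. *Top2b*, the topoisomerase found with cohesin at loop anchors, had the lowest fold change, -0.37 (interval -0.75 to 0.01, limma adjusted p = 0.412). It was at 4.85 and 4.07 scaled TPM against 3.63 and 2.85. *Ybx1*, an RNA and DNA binding protein gene, had the highest mean TPM, at 112 and 102 against 103 and 108 scaled TPM. *Yy1*, whose site letters were seen in the promoters above, was at 3.30 and 2.59 scaled TPM in wild-type hearts against 2.69 and 2.49 in heterozygous hearts, and the groups overlapped.

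**Figure D4:**
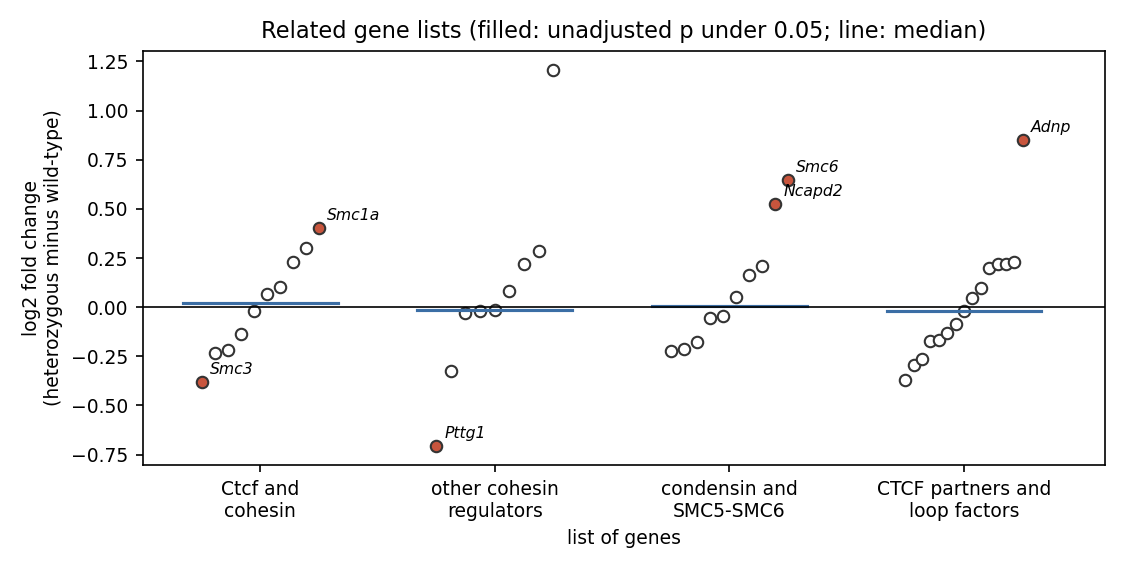
Log2 fold change, heterozygous minus wild-type, of every tested gene of the 10 Ctcf and cohesin genes and of 3 related lists, with a blue bar at the median. Filled points have an unadjusted p under 0.05; they are *Smc1a*, *Smc3*, *Pttg1*, *Smc6*, *Ncapd2* and *Adnp*, and none passed after adjustment. All 4 medians lie within 0.03 of 0.

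Markers of cell types in the heart were read beside these values. All 10 cardiomyocyte markers were present, with summed levels of 25581 and 25396 scaled TPM in wild-type hearts against 21706 and 26746 in heterozygous hearts, so the tissue matched its label. *Myh6* was the largest part of these sums. The fold change was above 0 for 4 of the 10 and below 0 for 6. Of the latter, 4 (*Myl2*, *Myl3*, *Actc1* and *Pln*) were lower in both heterozygous hearts, against 23.3% of all tested genes. The atrial marker *Nppa* was at 393 scaled TPM in wild-type replicate 1 and at 1012 to 1739 in the other hearts. Likewise, the atrial *Myl7* was at 300 scaled TPM in wild-type replicate 1 and at 634 to 1036 in the others. Summed levels of 6 endothelial markers were 258 and 256 against 292 and 336 scaled TPM, most of it *Egfl7* at 197 and 193 against 235 and 277, while 4 of the 6 had a fold change below 0 (*Pecam1* at -0.43). The sums of 6 fibroblast markers were 41.9 and 60.7 against 33.7 and 40.5, and those of 6 mural cell markers 79.4 and 72.4 against 55.2 and 72.4. Those of 7 macrophage and leukocyte markers were 17.3 and 17.0 against 14.3 and 19.8, and those of 5 red cell markers were 930 and 987 against 965 and 2120, highest in heterozygous replicate 2. Fold changes were below 0 for 5 of the 6 fibroblast markers and all 6 mural cell markers. They were below 0 for 3 of 4 tested macrophage and leukocyte markers, and above 0 for all 5 red cell markers. Of all 10036 tested genes, 4944 were above 0. The 5 cycling markers were below the level tested, with sums of 1.37 to 2.20 scaled TPM. The part of any of these in the values of the 10 genes was not tested.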

How the data were processed

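The authors deposited TPM per gene for each heart. Per the labels and the study's methods, reads were trimmed with Trim Galore, aligned to mm10 with STAR and quantified with RSEM, and DESeq2 was run on counts that were not used here. The deposited TPM are rounded to 2 decimals and keep no depth. Groups follow the genotype in the labels. Libraries were divided by median-of-ratios factors over 9970 genes above 0 in every library and with a mean of at least 1 TPM, 1 was added and log2 taken. Because the values are TPM, limma (3.58.1, R 4.3.3, lmFit and eBayes with trend, two-sided, genotype only, all 4 libraries) was used in place of a count model. Benjamini-Hochberg adjustment ran over 10036 genes.

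Ratios of TPM within a library were compared with an exact two-sided permutation test. Identifiers matched the GENCODE annotation of mm10 for 55141 of 55401 rows. Near copies were sought with BLAST+ (2.17.0, at least 90% identity), and tables were prepared with Python (3.11.15), pandas (2.3.3) and numpy (2.4.6). The code was tested on simulated data.

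The 10 genes, the related lists and the marker lists were chosen with earlier results of these data known. The text names all 10 genes, from each related list the gene of highest level, of smallest p, of highest and of lowest fold change, and any gene called, and for *Ctcf* the 5 genes of most similar course. The alternatives were other pseudocounts, filters, scalings and limma settings, a correction for GC content and length, a replicate block, and each library left out in turn. Scaling over all genes above 0 was added after the data were seen.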

Additional observations from a re-analysis of the deposited data

How the results depend on the processing

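None of the 10 genes was called under any alternative. The signs of *Smc3*, *Stag2* and *Pds5a* did not change under any alternative that kept them. These genes were lower in both heterozygous hearts in scaled TPM, so leaving out a library could hardly reverse them. TPM as deposited and the removal of mitochondrial genes moved all tested genes downward, away from a reversal. The ratios were rerun only with a pseudocount, with rows of a symbol summed, with a replicate block and with each library left out. Of the 7 ratios, 6 kept the sign of their difference. Summed rows and the block cannot change that difference here. Leaving out a library cannot reverse it where the groups do not overlap. In TPM as deposited the median of the 10 genes moved to -0.31, and *Ctcf* turned to -0.29, *Rad21* to -0.29, *Smc1a* to -0.017, *Stag1* to -0.10 and *Pds5b* to -0.074. With mitochondrial genes removed and totals made equal again the median was -0.27, and *Ctcf* was at -0.21, *Rad21* at -0.23 and *Stag1* at -0.022. All tested genes moved with them, to medians of -0.35 and -0.31. The shift of all tested genes thus remained with the mitochondrial genes removed. With a mean of at least 5 TPM, 4 of the 10 genes were left, with a median of 0.20. *Wapl* was at 0.0032 after the loess correction for GC content and length, with or without the replicate block.

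Leaving out each library in turn gave medians of -0.10 to 0.068 and fold changes of -0.065 to 0.27 for *Ctcf*, the former without heterozygous replicate 1. *Nipbl* ranged from -0.32 to 0.040 and *Wapl* from -0.14 to 0.096, each turning positive without heterozygous replicate 2. The log2 ratio of *Ctcf* to *Rad21* differed by -0.20 to 0.26, at -0.20 without heterozygous replicate 1 and -0.034 without wild-type replicate 2. Those of *Smc1a* to *Smc3* and of *Pds5b* to *Pds5a* differed by 0.94 to 1.05 and by 0.61 to 0.62, those of *Stag2* to *Stag1* and of *Rad21* to *Smc3* by -0.68 to -0.57 and by 0.50 to 0.80, and those of *Nipbl* to *Mau2* and to *Wapl* by -0.56 to -0.050 and by -0.36 to -0.0092. Fold changes ranged from -0.35 to -0.092 for *Stag2*, -0.35 to -0.12 for *Pds5a*, -0.46 to -0.30 for *Smc3*, 0.13 to 0.34 for *Stag1*, 0.19 to 0.42 for *Pds5b*, 0.31 to 0.49 for *Smc1a* and 0.023 to 0.11 for *Rad21*. Leaving out a library leaves a lone heart in that group, so p from those fits is not given for single genes. Over the alternatives that kept every library, limma adjusted p ranged from 0.0781 to 0.569 for *Smc3* and from 0.260 to 0.958 for *Smc1a*.

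Same-numbered libraries are different mice, and across genes the correlation of their deviations from the group means was 0.10. With the replicate number as a block, none of the 10 genes was called (*Smc1a* adjusted p = 0.342, *Smc3* 0.335, *Ctcf* 0.797). Over all tested genes the calls were 3 higher and 7 lower with the block, and 0 and 2 without it. They were 2 and 11 in TPM as deposited, 2 and 12 without mitochondrial genes, 11 and 4 without heterozygous replicate 1, 7 and 4 without heterozygous replicate 2, and 1 and 13 or 0 and 13 without wild-type replicate 1 or 2. With a lone library in a group, its spread is assumed to be that of the other group. Because TPM keep no depth, the counting error of the low genes (*Nipbl*, *Wapl*, *Stag2* and *Smc3*) is unknown.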
